A study of Bos taurus with 46 samples.

Results

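The genes described here are interferon-stimulated genes measured in the circulating leukocytes of pregnant heifers. They were chosen by name, as 41 gene symbols of the type I interferon response, and 39 of them were found among the 30675 genes of the NCBI count table. The choice was made with earlier results of these data known. Shares of members set beside shares of all genes are therefore descriptions and not an independent test of the list. *IFIT1* and *BST2* are not listed there under those symbols and were not analysed here. Blood was drawn from 23 Angus crossbred heifers (approximately 18 to 20 months old) on day 55 (D55) and again on day 105 (D105) of gestation, giving 46 RNA-seq libraries. The AI group (n = 8 heifers) conceived by artificial insemination. The other heifers each received 2 in vitro produced (IVP) blastocysts on day 7 after estrus, from slaughterhouse oocytes inseminated with semen of 1 Brahman bull. IVP heifers were grouped by fetal weight on D105 as IVP-Normal (labelled ARTnormal, n = 6) or IVP-LOS (labelled ARTLOS, n = 9). Large offspring syndrome (LOS) means a fetal weight at or above the 97 percentile of the AI fetuses of the same sex. Each AI heifer carried 1 fetus, while some heifers of both IVP groups carried 2. Male and female fetuses occurred in every group. All fetuses were crosses of *Bos taurus indicus* and *Bos taurus taurus*. Since each heifer was bled on both days, the day comparisons follow the same animals, while the group comparisons set different animals side by side.

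Type I interferons bind a receptor made of IFNAR1 and IFNAR2, whose kinases JAK1 and TYK2 activate STAT2. STAT2 and IRF9 act in a complex that enters the nucleus and turns on interferon-stimulated genes, whose products block viral translation, degrade viral RNA or tag proteins with ISG15. In ruminants the early conceptus secretes its own type I interferon, interferon tau, as the signal of maternal recognition of pregnancy, and *ISG15*, *MX1*, *MX2* and *OAS1* in maternal blood cells are known responders around that time, which lies before both days sampled here.

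Each library held 18692653 to 24502012 reads on genes (median 22934799.5). Levels are given as CPM, a gene's reads scaled to a common library size, after TMM scaling, which corrects for differences in library composition. CPM is not divided by transcript length, so the order of levels between genes is not an order of transcript numbers. The labels also place each library in a set. All D55 libraries and the IVP-Normal D105 libraries belong to the set New, and the AI and IVP-LOS D105 libraries to the set BACKUP. In AI and IVP-LOS the day and the set therefore cannot be told apart, while the IVP-Normal day comparison and all D55 comparisons lie within 1 set. The paper reports that the experiment ran over several seasons, and a legend places D55 blood in winter and D105 blood in summer. Day of gestation and season therefore cannot be told apart in any group, including IVP-Normal, and the part of season was not tested. The D105 libraries of IVP-LOS heifers 604 and 664 stood apart, with 38.6% and 36.7% of their counted reads on no gene against 24.3% to 31.1% in the other 21 D105 libraries. The paper reports that these heifers carried the largest LOS fetuses. Fits without them therefore also leave out the most extreme overgrowth.

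The first question was whether the members differed between D55 and D105 in each group. *IFIT2*, *IFIT3* and *ISG15* rose several-fold by D105 in AI and in IVP-Normal, and *XAF1* rose in both by a smaller amount. A gene was called at a false discovery rate (FDR) of at most 0.05 in edgeR's quasi-likelihood test over all genes tested. In AI, 10 of 39 members were called higher on D105 and 0 lower (25.6% of members, against 7.21% of 15248 genes called higher and 2.73% lower). In IVP-Normal, 4 were called higher and 0 lower (10.3% of members, against 2.27% of 15248 genes called higher and 0.184% lower), and these 4 were also among the 10 called in AI (40% of the AI list and 100% of the IVP-Normal list). In IVP-LOS 0 members were called by this test, where 0.198% of 15163 genes were called higher and 0.0528% lower. There 9 members had an unadjusted p under 0.05, all higher on D105 (23.1% of members, against 8.51% of genes). DESeq2's likelihood ratio test called 14 members in AI, 7 in IVP-Normal and 3 in IVP-LOS, the last being *IFIT2*, *IFIT3* and *ISG15*, against 8.79%, 4.33% and 1.70% of genes called higher. With the heifer as a block, which compares each animal with itself, the counts were 18 in AI, 7 in IVP-Normal and 1 in IVP-LOS, all higher on D105, against 10.2%, 4.49% and 0.778% of all genes called higher.

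Counted by animal, 9 members were higher on D105 in every AI heifer, 9 in every IVP-Normal heifer and 2, *IFIT3* and *IRF9*, in every IVP-LOS heifer, against 6.83%, 7.67% and 1.71% of all genes. All D105 libraries lay above all D55 libraries for 3 members in AI, 4 in IVP-Normal and 0 in IVP-LOS, against 1.76%, 1.88% and 0.0857% of all genes. Most of the remaining members lay on the same side without passing the test. The log2 fold change of D105 over D55 was positive for 34 of 39 members in AI, 32 in IVP-Normal and 38 in IVP-LOS, against 44.7%, 43.9% and 52.3% of all genes tested. The median log2 fold change of the members was 0.31 in AI, 0.21 in IVP-Normal and 0.33 in IVP-LOS, against medians of -0.02, -0.03 and 0.01 over all genes. With the heifer block the member medians were 0.30, 0.21 and 0.18, against -0.02, -0.03 and -0.01 over all genes. The unblocked IVP-LOS median depended on heifer 637, without which it was 0.22, with 35 of 39 members positive.

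**Figure D1:**
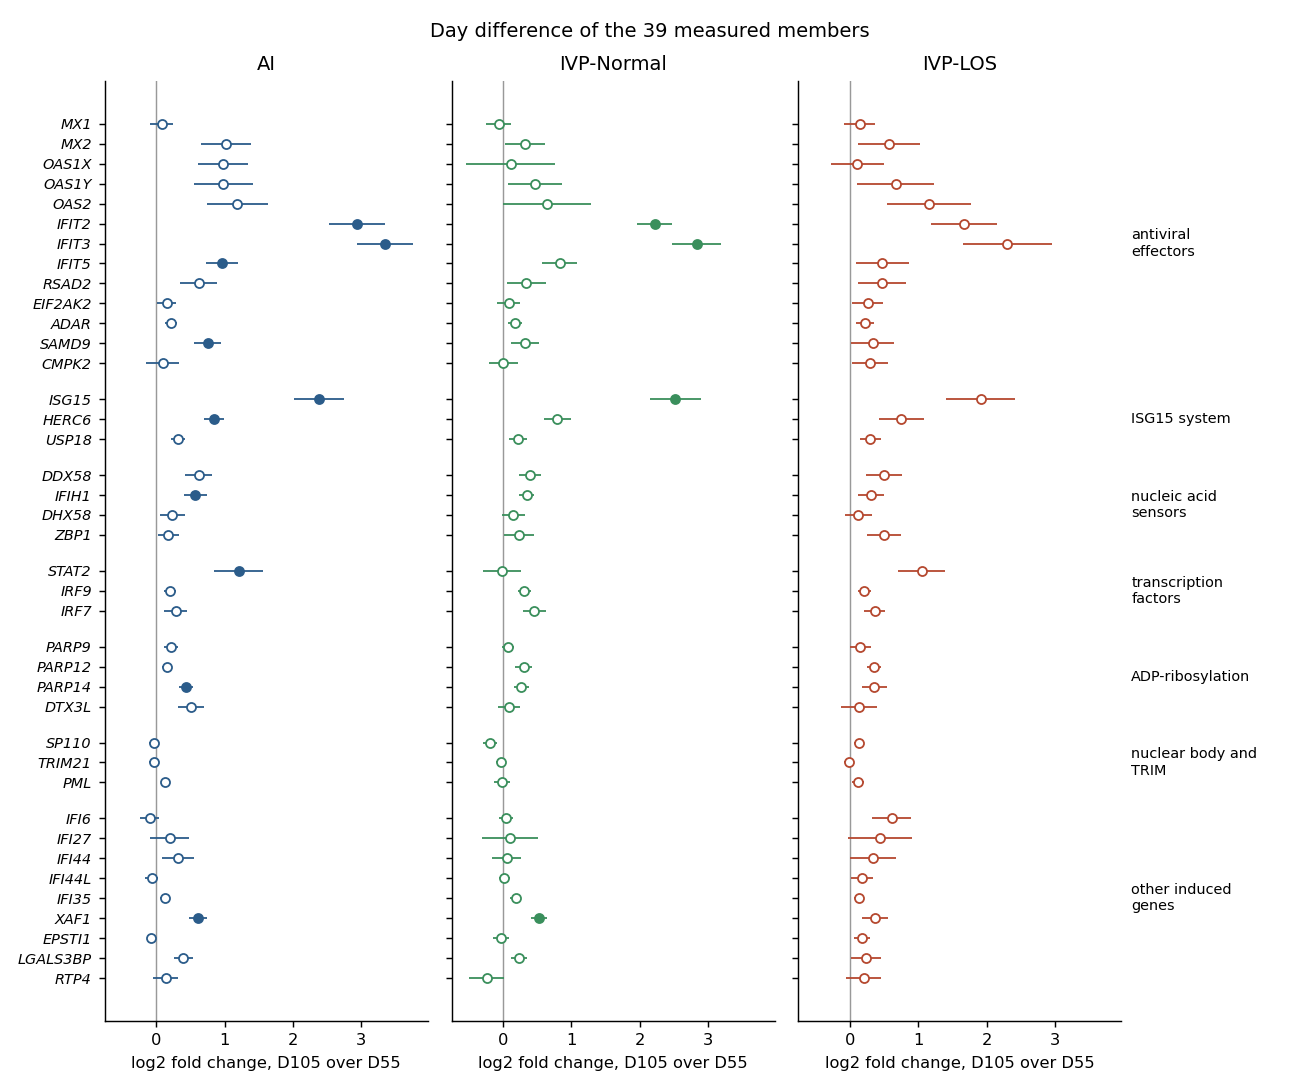
Log2 fold change of D105 over D55 for each of the 39 measured members, grouped by role, in AI, IVP-Normal and IVP-LOS. Points are edgeR estimates, bars are 1 standard error, and filled points passed an FDR of 0.05; *IFIT3*, *IFIT2* and *ISG15* lie farthest to the right in every panel, at 3.35, 2.94 and 2.38 in AI, and *TRIM21* lies at -0.04, -0.04 and -0.01.

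Markers of blood cell types moved between the days as well. In AI, 5 of 6 measured neutrophil markers were called higher on D105, in IVP-Normal 3 of 6 and in IVP-LOS 0 of 6. *CXCR2*, a chemokine receptor of neutrophils, had a median of 12.98 CPM on D55 and 346.2 CPM on D105 in AI. The summed level of the neutrophil list ranged from 753 to 1605 CPM on D55 and from 1625 to 4718 on D105 in AI, from 465 to 1145 and from 1026 to 4375 in IVP-Normal, and from 557 to 1752 and from 367 to 12010 in IVP-LOS, and it was higher on D105 in 19 of 23 heifers. Of the 6 monocyte markers, *CD14* was called higher in AI (log2 1.01, FDR = 0.0454), and 3 of the 6 with the heifer block; their summed level was higher on D105 in 7 of 8 AI, 5 of 6 IVP-Normal and 4 of 9 IVP-LOS heifers. Of the 6 NK cell markers, *GZMB* was called higher in IVP-Normal (log2 2.11, FDR = 0.0250), and in AI the block called 1 higher and 2 lower. Their summed level went the other way, being higher on D105 in only 1 of 6 IVP-Normal heifers and in 6 of 23 heifers of all groups. The B cell sum was higher on D105 in only 4 of 23 heifers, with 0 of 6 markers called in any group and 2 called lower in AI with the block. None of the 6 T cell markers was called in any day comparison, with or without the block. Higher sums on D105 were seen in 15 of 23 heifers for eosinophil, 6 of 23 for platelet and 4 of 23 for erythroid markers. Heifer 604 on D105 had the highest platelet and erythroid sums of all libraries, at 2621 and 602.9 CPM. In bulk blood RNA, a changed number of cells of a type and a changed amount of RNA per cell cannot be told apart, and the part of neutrophil number in the results on the members was not tested. Heifer by heifer on D105, the neutrophil sum was 12010 CPM in 637, 4718 in 590, 1310 in 616 and 429 in 664. Their member scores (defined further on) were 6.88, 6.04, 7.01 and 5.24. The sum was 3512 CPM in 609, 3250 in 546, 747 in 557 and 1026 in 519, with scores of 6.90, 6.56, 5.60 and 5.57. It was 4375 CPM in 628 and 1211 in 560, with scores of 6.05 and 6.37. Heifers 512, 557, 604 and 664 had a lower sum on D105 than on D55, with score differences of 0.24, 0.03, -0.11 and -0.15. Heifers 633 and 663 had a higher sum on D105, with score differences of -0.02 and -0.16.

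*IFIT3* and its neighbour *IFIT2*, the members with the highest log2 fold changes in AI, belong to the IFIT family, whose proteins bind viral RNA and block its translation. In AI heifers, *IFIT3* lay between 10.1 and 32.9 CPM on D55 (median 18.04) and between 46.3 and 448.1 CPM on D105 (median 184.7). In IVP-Normal heifers it lay between 14.3 and 44.9 CPM (median 21.4) and then between 84.0 and 291.8 CPM (median 164.1). The ranges of the days did not overlap in either group. In IVP-LOS heifers it lay between 7.79 and 57.0 CPM (median 13.7) and then between 14.1 and 460.0 CPM (median 67.1), and the ranges overlapped. The log2 fold change was 3.35 ± 0.41 (SE) in AI (10.2-fold, FDR = 7.25e-05 in edgeR's quasi-likelihood test) and 2.84 ± 0.36 in IVP-Normal (7.14-fold, FDR = 0.00391). In IVP-LOS it was 2.30 ± 0.65 (FDR = 0.133, 95% interval 0.93 to 3.67), which did not pass. *IFIT3* was the member with the most uniform direction, being higher on D105 in 23 of 23 heifers.

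The size of that difference varied widely between IVP-LOS heifers. In heifer 637 *IFIT3* went from 17.3 to 460.0 CPM and in heifer 656 from 7.79 to 67.1 CPM. In heifer 604 it went from 20.2 to 21.5 CPM, in heifer 664 from 9.02 to 14.1 CPM and in heifer 557 from 13.7 to 19.9 CPM. The heifers with small differences thus included the pair whose D105 libraries stood apart, and also heifer 557. In heifers 557, 604 and 664 the neutrophil and monocyte sums were both lower on D105 than on D55. Both sums were lower in heifer 512 too, where *IFIT3* went from 12.6 to 28.7 CPM. The part of cell numbers in these differences was not tested. Without heifers 604 and 664 the IVP-LOS log2 fold change of *IFIT3* was 2.46 (FDR = 0.208, edgeR quasi-likelihood), and without heifer 637 it was 1.53 (FDR = 0.304).

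*IFIT2* followed the same course. Its levels in AI were 17.4 to 36.5 CPM on D55 (median 30.1) and 41.4 to 507.0 CPM on D105 (median 182.6). In IVP-Normal they were 22.3 to 45.5 CPM (median 26.8) and 89.7 to 212.8 CPM (median 136.0), again without overlap. The log2 fold change was 2.94 ± 0.41 in AI (7.69-fold, FDR = 0.000188, edgeR quasi-likelihood) and 2.22 ± 0.26 in IVP-Normal (4.67-fold, FDR = 0.00391). In IVP-LOS, where the value was 1.68 ± 0.48 (FDR = 0.141), *IFIT2* was higher on D105 in 6 of 9 heifers and slightly lower in 557, 604 and 664. The AI heifer with the smallest difference was 647 for *IFIT2*, *IFIT3* and *ISG15* alike. In heifer 647 *IFIT2* was 34.3 CPM on D55 and 41.4 CPM on D105.

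*IFIT5*, of the same family, rose 1.96-fold in AI (log2 0.97 ± 0.24, FDR = 0.0124, edgeR quasi-likelihood), with medians of 30.8 and 52.4 CPM. The AI ranges overlapped, from 17.99 to 44.9 CPM on D55 and from 33.3 to 95.2 CPM on D105, but every AI heifer was higher on D105. The gene did not pass in IVP-Normal (0.83 ± 0.25, FDR = 0.133), where it passed with the heifer block (0.74, FDR = 0.0341) and in DESeq2, nor in IVP-LOS (0.47 ± 0.39, FDR = 0.681). Without AI heifer 606 its FDR in AI was 0.0566.

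**Figure D2:**
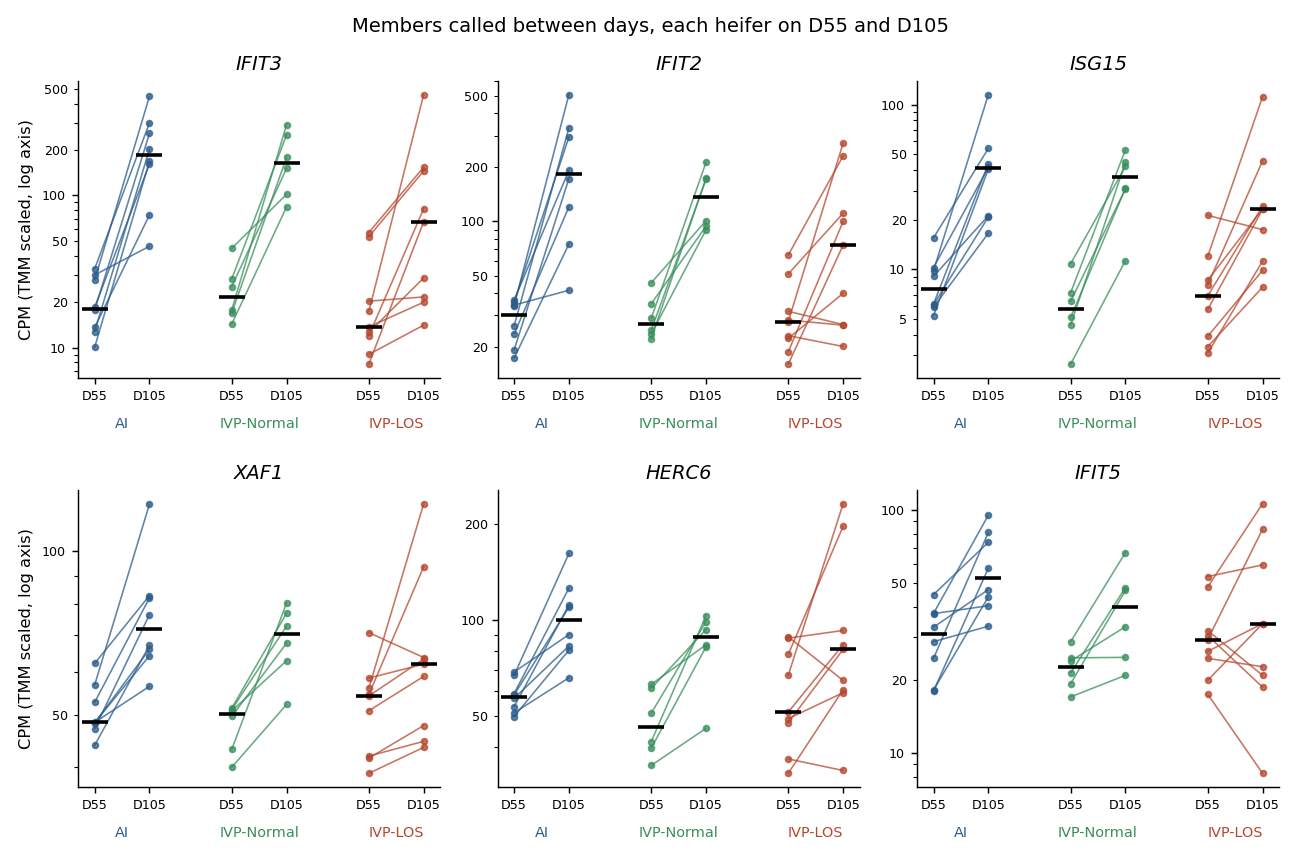
CPM (log axis) of *IFIT3*, *IFIT2*, *ISG15*, *XAF1*, *HERC6* and *IFIT5* on D55 and D105, with 1 line per heifer (8 AI, 6 IVP-Normal, 9 IVP-LOS) and black bars at group medians. *IFIT3* climbs in all 23 heifers, and its D105 median is 184.7 CPM in AI, 164.1 in IVP-Normal and 67.1 in IVP-LOS.

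*ISG15* encodes a ubiquitin-like protein that is attached to other proteins and secreted as a cytokine. In AI it lay between 5.24 and 15.5 CPM on D55 (median 7.61) and between 16.6 and 114.98 CPM on D105 (median 41.1). In IVP-Normal it lay between 2.66 and 10.8 CPM (median 5.75) and between 11.3 and 53.2 CPM (median 36.6). In IVP-LOS it lay between 3.09 and 21.3 CPM (median 6.90) and between 7.78 and 111.5 CPM (median 23.1). The D105 libraries all lay above the D55 libraries in AI and IVP-Normal, while the IVP-LOS ranges overlapped. *ISG15* rose 5.22-fold in AI (log2 2.38 ± 0.37, FDR = 0.000423, edgeR quasi-likelihood) and 5.75-fold in IVP-Normal (log2 2.52 ± 0.37, FDR = 0.00481). In IVP-LOS the log2 fold change was 1.92 ± 0.51 (FDR = 0.104), and with the heifer block it was 1.70 ± 0.29 and passed (FDR = 0.0214). It was higher on D105 in 22 of 23 heifers, the exception being IVP-LOS heifer 663, which had the highest D55 level (21.3 CPM) and 17.4 CPM on D105.

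The enzymes of the ISG15 system differed less. *HERC6*, a ligase of the family that attaches ISG15, went from a median of 57.6 to 99.9 CPM in AI and rose 1.79-fold (log2 0.84 ± 0.15, FDR = 0.00107, edgeR quasi-likelihood). In IVP-Normal it was higher on D105 in 6 of 6 heifers, with medians of 46.4 and 88.6 CPM, and stood just outside the threshold (log2 0.79 ± 0.20, FDR = 0.0551), passing with the heifer block (FDR = 0.00525). In IVP-LOS the value was 0.75 ± 0.32 (FDR = 0.340). *USP18*, the protease that removes ISG15, did not pass in the unblocked test in any group and passed in AI with the block (log2 0.31, FDR = 0.0195).

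Among the transcription factors, *STAT2* had fitted values of unlike size in the 3 groups. In AI it lay between 21.3 and 127.7 CPM on D55 (median 61.1) and between 74.2 and 307.4 CPM on D105 (median 123.5), and it rose 2.31-fold (log2 1.21 ± 0.36, FDR = 0.0383, edgeR quasi-likelihood). In IVP-LOS it lay between 33.4 and 120.5 CPM (median 48.8) and between 64.5 and 391.4 CPM (median 97.9), with a log2 fold change of 1.05 ± 0.35 that did not pass (FDR = 0.195). In IVP-Normal it lay between 39.7 and 120.9 CPM (median 74.6) and between 42.2 and 114.8 CPM (median 79.1), with a value of -0.02 ± 0.28 (FDR = 0.987). *STAT2* was lower on D105 in heifers 519 and 633 of IVP-Normal, in heifer 546 of AI and, by less than 0.1 CPM, in heifer 604 of IVP-LOS. The AI call lay near the threshold and was lost when any of heifers 533, 590, 606, 609 or 648 was left out, with FDR up to 0.117. With single AI heifers left out, the log2 fold change stayed between 0.94 and 1.55. *STAT2* was higher on D105 in 7 of 8 AI heifers and was also called in AI with the heifer block. Whether the change differed between groups is given with the group comparisons.

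*IRF9*, the DNA-binding partner of STAT2, was among the steadiest in direction although small in size. It was higher on D105 in 22 of 23 heifers, with log2 fold changes of 0.19 ± 0.09 in AI, 0.31 ± 0.10 in IVP-Normal and 0.21 ± 0.09 in IVP-LOS, none of which passed (FDR from 0.131 to 0.366, edgeR quasi-likelihood). *IRF7*, which drives interferon genes themselves, was higher in 19 of 23 heifers and passed with the block in AI (log2 0.28, FDR = 0.0345) and in IVP-Normal (log2 0.45, FDR = 0.0278).

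Of the cytosolic sensors, *IFIH1* (MDA5, a sensor of long double-stranded RNA) rose 1.49-fold in AI (log2 0.57 ± 0.17, FDR = 0.0364, edgeR quasi-likelihood), from a median of 69.2 to one of 97.2 CPM. The call was lost without any of heifers 533, 606, 609 or 648. *DDX58* (RIG-I, a sensor of short RNA with a triphosphate end) was 0.62 ± 0.20 and missed the threshold (FDR = 0.0572), passing with the block (FDR = 0.0102). *DHX58* and *ZBP1* did not pass in any group.

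The other members called in AI were *XAF1*, *SAMD9* and *PARP14*. *XAF1*, a pro-apoptotic factor, rose 1.52-fold in AI (log2 0.61 ± 0.13, FDR = 0.00500, edgeR quasi-likelihood) and 1.44-fold in IVP-Normal (log2 0.52 ± 0.11, FDR = 0.0255), and was higher on D105 in 22 of 23 heifers. In IVP-Normal its D105 levels (52.2 to 80.4 CPM) all exceeded its D55 levels (40.0 to 51.4 CPM). The IVP-Normal call was lost when any 1 of 5 of the 6 heifers was left out (560, 628, 633, 669 or 688). *SAMD9*, an antiviral factor that restricts poxviruses, rose 1.68-fold in AI (log2 0.75 ± 0.20, FDR = 0.0191), with medians of 251.5 and 460.6 CPM. Its call was lost without heifer 606 (FDR = 0.0781) or 648 (FDR = 0.0695). *PARP14*, a mono-ADP-ribosyltransferase, rose 1.35-fold (log2 0.44 ± 0.11, FDR = 0.0130), while its neighbours *PARP9* and *DTX3L* were 0.22 ± 0.10 and 0.51 ± 0.19 and did not pass (FDR = 0.218 and 0.117).

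By role, and beside the 7.21% of all genes called higher in AI and 2.27% in IVP-Normal, the members called in AI were 4 of 13 measured antiviral effectors, 2 of 3 genes of the ISG15 system, 1 of 4 sensors, 1 of 3 transcription factors, 1 of 4 genes of ADP-ribosylation and 1 of 9 other induced genes. In IVP-Normal they were 2 effectors, 1 gene of the ISG15 system and 1 of the other induced genes. None of *SP110*, *TRIM21* and *PML*, genes of nuclear bodies and of the TRIM family, was called in either group.

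Of the classical MX and OAS genes none was called in the unblocked test in any group. *MX1*, a dynamin-like GTPase that traps viral particles, was among the members with the highest CPM and did not pass in any group. Its levels in AI were 250.9 to 430.3 CPM on D55 (median 285.6) and 190.0 to 457.6 CPM on D105 (median 321.9). In IVP-Normal they were 236.9 to 527.7 CPM (median 404.7) and 258.2 to 488.8 CPM (median 416.1), and in IVP-LOS 215.8 to 462.8 CPM (median 324.9) and 195.9 to 780.9 CPM (median 360.7). The log2 fold changes were 0.08 ± 0.17, -0.07 ± 0.18 and 0.14 ± 0.23, with 95% intervals of -0.28 to 0.44, -0.46 to 0.33 and -0.33 to 0.61, and 11 of 23 heifers were higher on D105. The intervals exclude a change as large as that fitted for *IFIT3*, but not a modest one, and without heifer 609 the AI value was -0.03.

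*MX2*, the neighbour and relative of *MX1*, had a wider spread. In AI it lay between 43.5 and 113.2 CPM on D55 (median 61.6) and between 52.0 and 381.8 CPM on D105 (median 123.8), with a log2 fold change of 1.02 ± 0.37 that missed the threshold (FDR = 0.0952, edgeR quasi-likelihood) and passed with the heifer block (0.79 ± 0.24, FDR = 0.0422). In IVP-LOS the median was 72.1 CPM on D55 and 55.6 CPM on D105, while heifers 616 and 637 went from 94.6 to 383.7 CPM and from 96.3 to 270.7 CPM. The IVP-LOS value was 0.57 ± 0.46 (FDR = 0.667), and that of IVP-Normal 0.32 ± 0.29 (FDR = 0.700).

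The 2'-5'-oligoadenylate synthetases make a second messenger that activates RNase L. *OAS1Y* had medians of 18.3 and 36.4 CPM in AI, 12.5 and 19.6 CPM in IVP-Normal, and 14.3 and 16.7 CPM in IVP-LOS. It did not pass in any group (log2 0.98 ± 0.43, 0.46 ± 0.40 and 0.67 ± 0.57) and passed in AI with the block (0.97 ± 0.26, FDR = 0.0262, edgeR quasi-likelihood). *OAS1X* likewise passed in AI with the block (0.89 ± 0.22, FDR = 0.0172). *OAS2* had log2 fold changes of 1.18 ± 0.45, 0.64 ± 0.65 and 1.16 ± 0.62 and did not pass, although DESeq2 called it in AI (adjusted p = 0.0461). These genes are neighbours, the annotated spans of *OAS1Y* and *OAS2* overlap in the reference gene table, and near-identical copies could share or lose reads in counting, so their separate values are uncertain.

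The OAS genes and *IFIT3* differed most between heifers of 1 group on 1 day. The standard deviation (SD) of log2(CPM + 1) over heifers, averaged over the 6 groups, was 1.10 for *OAS2*, 0.98 for *OAS1X*, 0.93 for *IFIT3* and 0.93 for *OAS1Y*. It was 0.16 for *SP110*, 0.15 for *PML*, 0.12 for *IFI35* and 0.11 for *TRIM21*, and 0.41 for *MX1*. *OAS1X* ranged from 2.14 to 83.2 CPM over all heifers on D55. Heifer 688 had the lowest *OAS1X* level on both days (2.14 and 5.29 CPM), yet the highest *OAS2* level on D55 (21.9 CPM). Heifer 546 had the highest *OAS1X* and *OAS1Y* levels on D55 (83.2 and 52.5 CPM). Heifer 664 had the lowest *OAS2* level on both days (1.49 and 0.93 CPM). *TRIM21*, by contrast, stayed between 66.0 and 95.9 CPM in all 46 libraries.

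**Figure D3:**
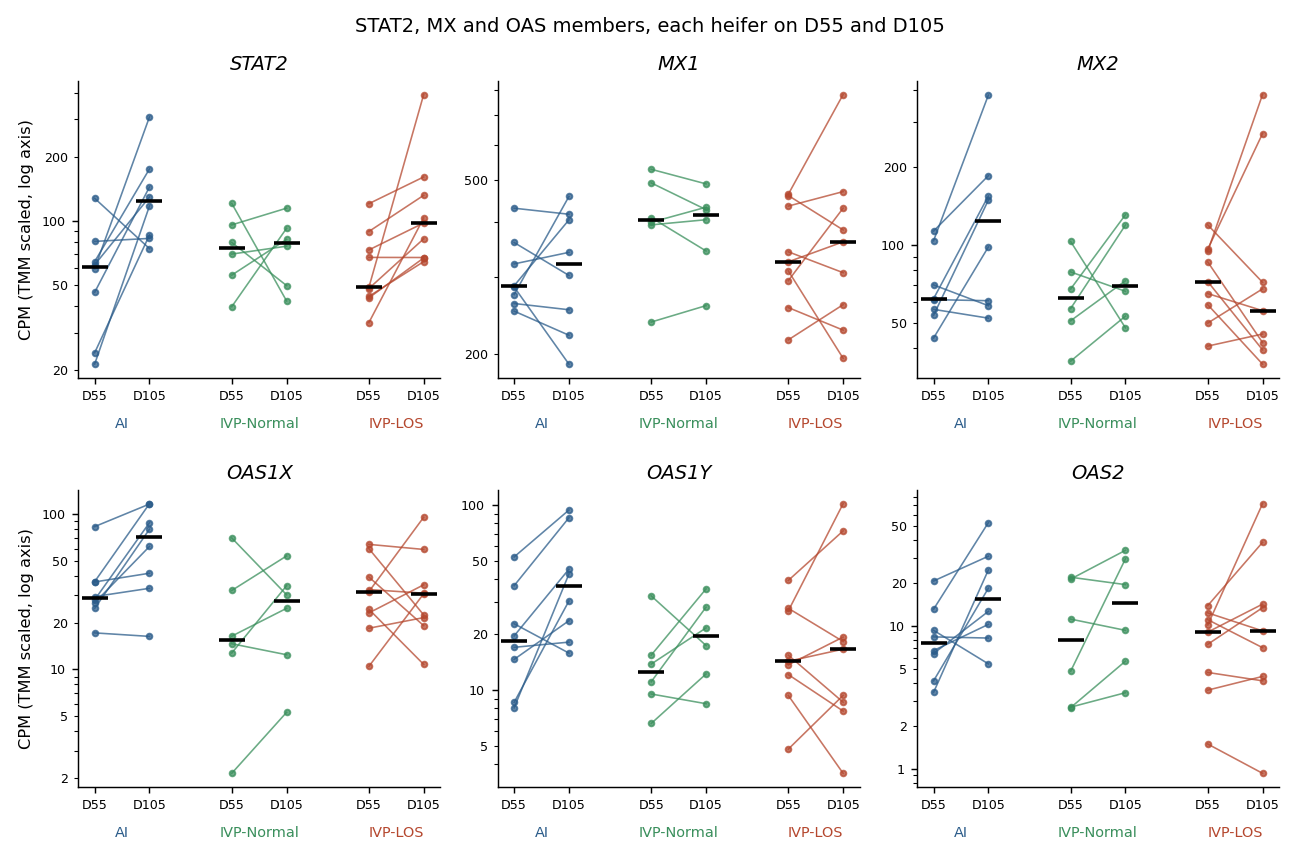
CPM (log axis) of *STAT2*, *MX1*, *MX2*, *OAS1X*, *OAS1Y* and *OAS2* on D55 and D105, with 1 line per heifer and black bars at group medians. *STAT2* medians go from 61.1 to 123.5 CPM in AI and from 74.6 to 79.1 CPM in IVP-Normal, lines cross in every *MX1* panel, and the lowest *OAS1X* line is IVP-Normal heifer 688.

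By CPM, *MX1*, *SAMD9* and *ADAR* were the highest members, with means over all libraries of 356.2, 326.8 and 304.8 CPM, and *IFI27*, *RTP4* and *OAS2* the lowest, with 8.95, 9.12 and 13.9 CPM. All 39 members passed the filter on low counts in all 12 comparisons, and the lowest read count of a member in any library was 17, that of *OAS2* in heifer 664 on D105. *ADAR*, which edits double-stranded RNA, was higher on D105 in 19 of 23 heifers with log2 values between 0.17 and 0.22 that did not pass. *IFI27* was highest in heifer 616 on both days (20.1 and 37.6 CPM) and lowest in heifer 664 on both days (2.72 and 2.35 CPM). *IFI6* was likewise highest on D105 in heifer 616, at 78.7 CPM against at most 38.2 CPM in any other library of that day.

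A score was taken as the mean of log2(CPM + 1) over the 39 members, given as a description without a test. On D55 it was 5.75 ± 0.21 (SD, n = 8) in AI, 5.65 ± 0.18 (n = 6) in IVP-Normal and 5.73 ± 0.28 (n = 9) in IVP-LOS. On D105 it was 6.27 ± 0.36, 6.03 ± 0.26 and 6.03 ± 0.57. Within heifers, D105 exceeded D55 by 0.53 ± 0.31 in AI (8 of 8 heifers higher), by 0.38 ± 0.29 in IVP-Normal (5 of 6) and by 0.30 ± 0.47 in IVP-LOS (6 of 9). Without *IFIT2*, *IFIT3* and *ISG15*, a choice made after their values were seen, the differences were 0.35 ± 0.27, 0.21 ± 0.28 and 0.21 ± 0.43, higher in 8 of 8, 4 of 6 and 5 of 9 heifers.

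The spread of the score on D105 was widest in IVP-LOS, which held both the highest and the lowest values of that day. Heifers 616 and 637 reached 7.01 and 6.88, each about 1.02 above their D55 score, and AI heifer 609 reached 6.90. Heifers 663, 664 and 604 had differences of -0.16, -0.15 and -0.11, with D105 scores of 6.01, 5.24 and 5.82. Heifer 663 had the highest D55 score of all heifers (6.17). Without heifers 604 and 664 the IVP-LOS difference was 0.43 ± 0.46, and without heifer 637 it was 0.21 ± 0.41. Heifer 637 also had by far the highest neutrophil sum (12010 CPM on D105), and its part in the score was not tested.

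**Figure D4:**
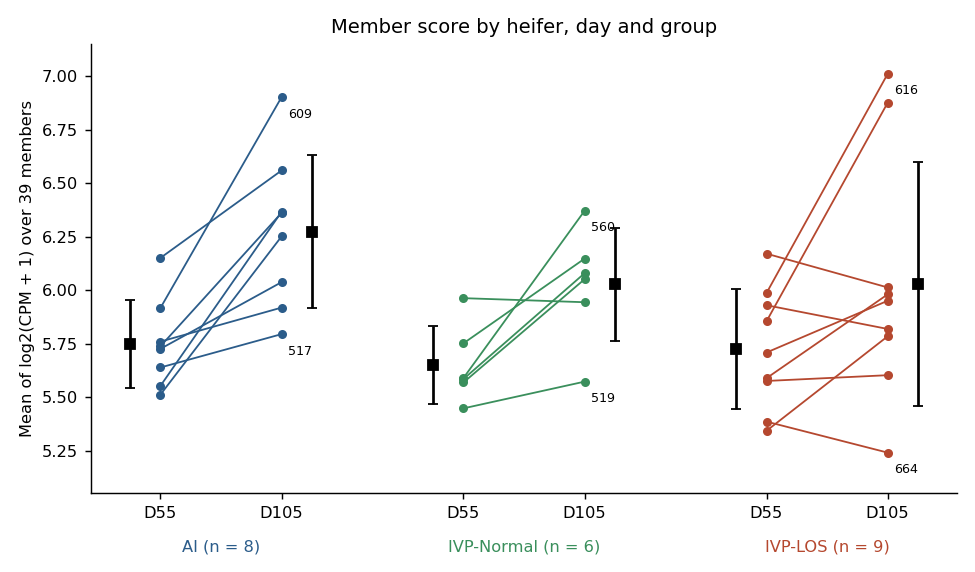
Mean of log2(CPM + 1) over the 39 members on D55 and D105, with 1 line per heifer. Squares and bars are group means and SDs (n = 8, 6 and 9), and the numbers name the heifers with the lowest and highest D105 score of each group; IVP-LOS spans 5.24 (664) to 7.01 (616) on D105.

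The second question was whether the members differed between AI, IVP-Normal and IVP-LOS on the same day. In edgeR's quasi-likelihood test 0 of 39 members were called in each of the 6 comparisons, as were 0% of the 15236 to 15484 genes tested. DESeq2 also called 0 members in each, and 0.0977%, 0.00656% and 0.0194% of genes on D55 and 0.0194%, 0.281% and 0.0840% on D105, in the order IVP-Normal against AI, IVP-LOS against AI and IVP-LOS against IVP-Normal. On D55 the members with an unadjusted p under 0.05 numbered 6 in IVP-Normal against AI, 2 in IVP-LOS against AI and 2 in IVP-LOS against IVP-Normal (15.4%, 5.13% and 5.13% of members, against 9.92%, 7.74% and 5.19% of all genes). On D105 they numbered 6, 3 and 1 (15.4%, 7.69% and 2.56%, against 9.57%, 5.76% and 3.24%). The count for IVP-LOS against AI on D105 depended on heifer 637, without which it was 8, of which 6 were lower in IVP-LOS (20.5%, against 17.4% of genes), with a lowest FDR of 0.133 and *OAS1X* at -1.25. The lowest FDR of any member was 0.493, that of *MX1* in IVP-Normal against AI on D55, where the log2 difference was 0.40 ± 0.15 with a 95% interval of 0.07 to 0.73. The next was *IFI44L* in the same comparison (-0.21 ± 0.09, FDR = 0.497).

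On D105, IVP-LOS and AI libraries belong to the same set. *IFIT2* had a log2 difference of IVP-LOS from AI of -1.11 (95% interval -2.29 to 0.06, FDR = 0.755, edgeR quasi-likelihood), *IFIT3* one of -0.91 (-2.23 to 0.41) and *ISG15* one of -0.53 (-1.60 to 0.53). The intervals allow no difference as well as a several-fold one. *SP110* and *OAS1X* had the smallest unadjusted p there (FDR = 0.755 for both), with differences of 0.22 ± 0.10 and -0.94 ± 0.41. On D55 the smallest unadjusted p in IVP-LOS against AI were those of *PARP12* (-0.19 ± 0.08, FDR = 0.636) and *IRF7* (-0.30 ± 0.14, FDR = 0.638), and in IVP-LOS against IVP-Normal those of *RSAD2* (viperin, which makes a chain-terminating nucleotide, 0.54 ± 0.25) and *IFIT5* (0.49 ± 0.23), both with FDR = 0.839.

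In IVP-Normal against AI on D105, where the groups also differ by library set, *OAS1X* was at -1.36 ± 0.49, *STAT2* at -0.87 ± 0.31 and *OAS1Y* at -1.11 ± 0.43, each with FDR = 0.514. In this comparison 32 of 39 members had a negative difference, with a median of -0.21 against 0.01 over all genes. In IVP-LOS against IVP-Normal on D105 the lowest FDR was 0.999, with *RTP4* at 0.72 ± 0.31 and *STAT2* at 0.77 ± 0.39. Comparisons that share a group share its libraries, so these values are not independent of each other.

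**Figure D5:**
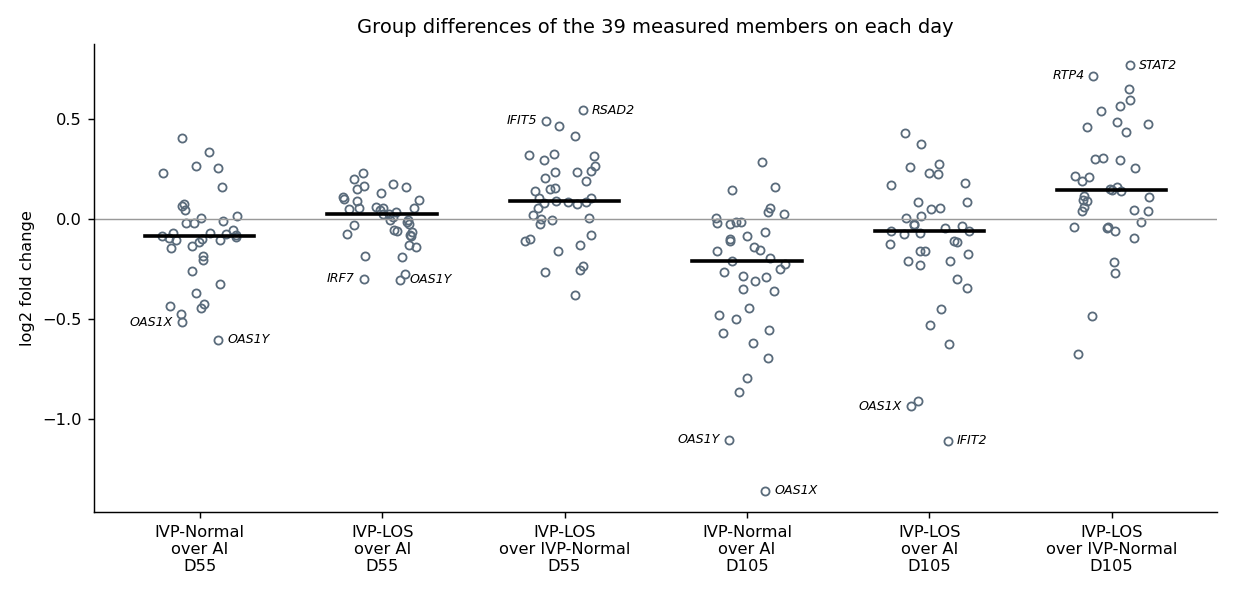
Log2 fold change of each of the 39 members between groups on D55 and D105, with 1 open circle per member and a black line at the median; the 2 members farthest from 0 are named. No member passed an FDR of 0.05, and the circles reach -1.36 (*OAS1X*) in IVP-Normal over AI on D105.

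The third question was whether the change from D55 to D105 differed between groups, tested as an interaction of day and group. In edgeR's quasi-likelihood test 0 of 39 members were called in the 3 tests, as were 0% of the 16018 to 16181 genes. The heifer block and DESeq2 also gave 0 members, and DESeq2 called 0%, 0% and 0.00618% of genes. The test of IVP-LOS against AI, in which each day lies within 1 library set, had 1 member with an unadjusted p under 0.05 (2.56%, against 4.96% of genes), *IFI6*, at 0.71 ± 0.34 (FDR = 0.909). Without heifer 637 there were 7, of which 6 had a negative difference (17.9%, against 10.4% of genes, lowest FDR 0.399, *IFIT2* at -1.64), and with the heifer block 3, all negative (7.69%, against 10.5%). With all heifers and no block, *IFIT2* followed with -1.26 (95% interval -2.57 to 0.04, FDR = 0.909), *IFIT3* was -1.05 (-2.64 to 0.54) and *ISG15* -0.46 (-1.76 to 0.84). The passing of *IFIT2*, *IFIT3* and *ISG15* in AI and not in IVP-LOS is therefore not a shown difference between the groups. In each test against IVP-Normal *STAT2* was among the 2 members with the smallest unadjusted p. Its change in IVP-Normal differed from that in AI by -1.22 on the log2 scale (95% interval -2.23 to -0.20, FDR = 0.9999), and *DTX3L* followed with -0.42 ± 0.27. Its change in IVP-Normal differed from that in IVP-LOS by -1.05 (-2.06 to -0.03, FDR = 1.0), where *SP110* stood at -0.32 ± 0.13. These tests had 1 and 2 members with an unadjusted p under 0.05 (2.56% and 5.13%, against 3.39% and 0.828% of genes). Both AI and IVP-LOS changed library set between the days while IVP-Normal did not, so that set and group cannot be told apart in those tests.

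Genes around the members in the pathway were given by 3 lists with 36 symbols, of which 33 were tested. Of the 9 receptors and kinases, 6 were called higher on D105 in AI, 1 in IVP-Normal and 0 in IVP-LOS, against 7.21%, 2.27% and 0.198% of all genes. With the heifer block these counts were 7, 3 and 0, with 1 called lower in IVP-Normal. Those in AI included *IFNAR2*, a chain of the type I receptor (log2 0.78 ± 0.13, FDR = 0.000864, edgeR quasi-likelihood), *IFNGR1*, a chain of the interferon gamma receptor (0.74 ± 0.12, FDR = 0.000620), *JAK2* (0.61 ± 0.12, FDR = 0.00324) and *IL10RB*, shared by the receptors of interferon lambda and interleukin 10 (0.52 ± 0.08, FDR = 0.000553). *IL10RB* was the 1 called in IVP-Normal (0.49 ± 0.11, FDR = 0.0365). Of 13 genes that sense nucleic acids and induce interferon, *MYD88* rose (0.75 ± 0.15, FDR = 0.00253) and *TICAM1* fell (-0.53 ± 0.10, FDR = 0.00217) in AI, and 0 were called in the IVP groups. The block called 1 higher and 2 lower of these in AI, 1 and 1 in IVP-Normal, and 0 and 1 in IVP-LOS. Of 11 tested genes of the interferon gamma branch 0 were called higher and 1, the chemokine gene *CXCL10*, lower in AI, by 0.62 ± 0.17 (FDR = 0.0238), and the block called 2 lower in AI.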

How the data were processed

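RNA of blood leukocytes was sequenced from 23 heifers on D55 and D105 (46 libraries). After trimming, the authors mapped reads to ARS-UCD1.2 (HISAT2 version 2.1.0, per the labels), assigned them to NCBI RefSeq genes with HTSeq and deposited raw read counts without normalization for 30675 genes, of which 25404 had a read. The 5 summary lines of reads on no gene were kept out of library sizes and tests. A second table, counted on Ensembl genes, was not used here.

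Groups were taken from the labels. Genes were kept by edgeR's filterByExpr (minimum count 10) and tested with edgeR 4.0.16 (quasi-likelihood, TMM scaling, R 4.3.3) in 12 comparisons, each on the groups compared and without a heifer term. The p-values were adjusted by the Benjamini-Hochberg method over all genes tested, with 0.05 as the threshold. Standard errors were computed in the same fits from the log2 fold change and the F statistic of the test, and the 95% intervals from those errors. Without the heifer block, the errors and intervals between days ignore that both days come from the same animals. Scores used a pseudocount of 1. The scripts were tested on simulated data. Alternatives were DESeq2 1.42.0, edgeR's likelihood ratio test, other scaling, no filter, all 46 libraries in the fit, the heifer as a block, and fits without single heifers.

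The members and lists were chosen with earlier results of these data known. The text names *MX1*, *MX2*, *ISG15* and *OAS1Y*, the members called in a day comparison, those called or the 2 with the smallest FDR in the other comparisons, the most and least variable and the highest and lowest members, and called genes of the pathway lists (up to 6 per comparison). Other genes, and the heifers named, were chosen after their values were seen. Both days of a heifer come from 1 animal: deviations from the group means correlated within heifers (mean 0.53, 0.28 to 0.83, over 0.1 in 23 of 23) and not between heifers (mean -0.02). Heifers are separate animals, and 0 libraries were identical. The lowest count of a member in a library was 17 reads, where counting error is largest.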

Additional observations from a re-analysis of the deposited data

Results flagged for a closer look

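A sample was singled out where the gap between the highest or lowest heifer of a group and its nearest neighbour exceeded Dixon's 95% critical value. Of 174 sets of values tested (28 named members and the score, each in 6 groups of libraries), 8 were singled out (4.6%), and chance gives about 1 in 20. IVP-Normal heifer 519 accounted for 4 of them. On D105 it was lowest for *ISG15* (11.28 CPM, nearest heifer 30.77), for *HERC6* (45.86 CPM, nearest 82.45) and for *PML* (200.8 CPM, nearest 252.2), and on D55 it was lowest for *RSAD2* (6.269 CPM, nearest 11.32). IVP-Normal heifer 669 was lowest for *MX1* on D55 (236.9 CPM, nearest 394.3). In IVP-LOS, heifer 637 was highest for *STAT2* on D105 (391.4 CPM, nearest 160.8), and heifer 664 was lowest for *IRF7* on D55 (35.16 CPM, nearest 45.73). AI heifer 546 was highest for *PARP14* on D55 (164.1 CPM, nearest 131.8).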

How the results depend on the processing

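With the heifer as a block, 18 members were called in AI, 7 in IVP-Normal and 1 in IVP-LOS, against 10, 4 and 0 without it, and the block called 0 members in the tests of a difference in day change. DESeq2 called 7 members in IVP-Normal and 3 in IVP-LOS, edgeR's likelihood ratio test 3 in IVP-LOS, and the fit on all 46 libraries 4 in IVP-LOS. Over all genes, the last 2 fits called 198 of 15163 and 448 of 16487 higher in IVP-LOS. Leaving out 1 heifer at a time gave 6 to 12 members in AI (6 without heifer 606), 3 to 6 in IVP-Normal and 0 in IVP-LOS. Genes called higher in the same fits numbered 831 to 1162 in AI, 94 to 501 in IVP-Normal and 8 to 94 in IVP-LOS. *IFIT2*, *IFIT3* and *ISG15* were called in each of these fits in AI (8 of 8) and IVP-Normal (6 of 6). The other counts in the day comparisons were within 1.5 times the main count, and the group comparisons and tests of day change gave 0 members under each alternative run. Without heifers 604 and 664, members with an unadjusted p under 0.05 numbered 1 instead of 3 in IVP-LOS against AI on D105, 3 instead of 1 in IVP-LOS against IVP-Normal on D105, 0 instead of 1 in the test of day change between IVP-LOS and AI, and 1 instead of 2 in that between IVP-Normal and IVP-LOS. Over all genes the first 3 counts moved the same way, to 483 instead of 880, 1272 instead of 501, and 289 instead of 795. The last was 166 genes instead of 134. The genes tested numbered 15333 to 16057 without these heifers and 15283 to 16181 with them. Without heifer 637 the member count in the test between IVP-Normal and IVP-LOS was also 1, beside 423 of 16123 genes. The 1 member in IVP-LOS against IVP-Normal on D105 was then lower instead of higher, as were 739 of the 973 genes with such a p. Some values near 0 changed sign, none of them called. *MX1* in AI was -0.026 without heifer 609 (range -0.026 to 0.14). *STAT2* in IVP-Normal was 0.0002548 with the block, and 0.10 and 0.28 without heifers 519 and 633 (range -0.21 to 0.28). *OAS1X* was -0.11 and -0.10 in IVP-Normal without heifers 560 and 669 (range -0.11 to 0.74) and -0.23 in IVP-LOS without heifer 637 (range -0.23 to 0.32). The score difference kept its direction in each group, at 0.48 to 0.54 in AI, 0.35 to 0.39 in IVP-Normal and 0.21 to 0.43 in IVP-LOS, and at 0.75, 0.54 and 0.55 SD units with z-scored members. For the score, leaving out heifers 604 and 664 or heifer 637 was chosen after seeing the data. The cause of these shifts was not tested. The count on Ensembl genes was not run.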
